A study of Homo sapiens with 24 samples.

Results

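The proteasome is the protease that degrades ubiquitin-tagged proteins in the cytosol and nucleus. Its genes were taken as the rows of the deposited count table whose Ensembl identifier belongs to a protein-coding gene with a symbol from PSMA to PSMG followed by a digit. This gave 50 of 63299 rows. Of these, 48 encode subunits, regulators or assembly factors, and 2 (PSMC3IP, a meiotic recombination factor, and PSME3IP1, a partner of PSME3) share the symbol pattern without being subunits. Whole transcriptome RNA sequencing was done on 24 libraries in 8 groups of 3. The cells were A2780, a platinum-sensitive human ovarian cancer line, and A2780cis, its isogenic platinum-resistant derivative, which received 1 μM cisplatin for a passage at intervals to keep its resistance. Each line was kept in standard medium or received 1 μM 5-FdU-ECyd, and was harvested after 6 h or 12 h. 5-FdU-ECyd is a duplex drug that joins a fluorinated deoxyuridine, an inhibitor of thymidylate synthase, to ethynylcytidine, an inhibitor of RNA synthesis. Sensitive and resistant cells are represented by 1 line each, and the study calls the libraries of a group biological triplicates. The labels do not say whether the 3 libraries of a group came from separate cultures, and p-values measure the spread between these libraries, which may be technical.

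The core particle of the proteasome is a barrel of alpha and beta rings, in which PSMB5, PSMB6 and PSMB7 carry the catalytic sites. Interferon exchanges these for the immune subunits PSMB8, PSMB9 and PSMB10, and induces the cap subunits PSME1 and PSME2, which favour the production of peptides for MHC class I. The regulatory particle consists of the ATPases of the PSMC series, which unfold substrates, and the non-ATPases of the PSMD series, which recognise and deubiquitinate them. PSME3 and PSME4 form other caps, PSMF1 is an inhibitor, and PSMG1 to PSMG4, PSMD5, PSMD9 and PSMD10 help to assemble the particle. NFE2L1 raises transcription of proteasome genes through antioxidant response elements when proteolysis is impaired, and immune subunit genes respond to interferon through interferon-stimulated response elements.

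Promoter windows of the 250 bases before a transcription start were held by the RefSeq table (GRCh38.p14) for 44 of the 50 members. The letters TGACNNNGC, the core of an antioxidant response element, were present on either strand in 13 of them (29.5%), compared to 13.2% of 27305 genes with such a window. The core of an interferon-stimulated response element, searched as the letters GAAA, any 2 bases and GAAA again, was present in 5 (PSMA4, PSMB4, PSMB10, PSME2 and PSMG4, 11.4%), compared to 3.71% of all genes, and the letters CCAAT in 21 (47.7%), compared to 37.0%. These are letter matches and not binding sites. The windows of 3 immune members (PSMB9, PSMB10 and PSME2) and of TAP1, the peptide transporter gene that shares a divergent promoter region with PSMB9, are shown because the responses of these genes differed between the lines, and those of PSMB3, PSMD12 and PSME4 because they hold the same antioxidant letters although their responses differed. Capitals mark only the matches placed in the next sentences, and other matches stay in lower case, such as antioxidant letters in PSME2 and CCAAT in PSMB3. In PSMB10 (chr16:67936851-67937100, minus strand) the interferon letters began 21 bases before the start, in PSME2 (chr14:24146611-24146860, minus strand) 28 bases, and in TAP1 (chr6:32853705-32853954, minus strand), in which a pair of matches overlaps on the opposite strand, 134 and 128 bases. The antioxidant letters began 148 bases before the start in PSMB9 (chr6:32853942-32854191, plus strand), 104 in PSMB3 (chr17:38752491-38752740, plus strand), 165 in PSMD12 (chr17:67366578-67366827, minus strand) and 34 in PSME4 (chr2:53970994-53971243, minus strand). The interferon letters of TAP1 lie in the region shared with PSMB9 but outside the PSMB9 window. Their absence from that window is therefore a matter of its length. Each window is written 5′ to 3′ on the strand of its gene.
PSMB10: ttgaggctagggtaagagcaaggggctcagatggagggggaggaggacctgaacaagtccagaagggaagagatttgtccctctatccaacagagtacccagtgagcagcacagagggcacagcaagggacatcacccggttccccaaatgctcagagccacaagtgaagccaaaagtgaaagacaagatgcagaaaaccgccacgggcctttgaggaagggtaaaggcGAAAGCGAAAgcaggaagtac
PSME2: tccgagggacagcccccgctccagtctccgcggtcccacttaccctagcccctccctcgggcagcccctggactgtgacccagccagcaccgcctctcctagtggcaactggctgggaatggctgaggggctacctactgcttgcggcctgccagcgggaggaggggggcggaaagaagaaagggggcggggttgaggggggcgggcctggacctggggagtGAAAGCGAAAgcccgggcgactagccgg
TAP1: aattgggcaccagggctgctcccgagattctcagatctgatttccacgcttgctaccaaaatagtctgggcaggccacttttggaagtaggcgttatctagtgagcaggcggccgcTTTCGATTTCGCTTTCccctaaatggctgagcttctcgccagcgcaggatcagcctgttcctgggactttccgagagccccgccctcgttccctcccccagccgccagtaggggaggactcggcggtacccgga
PSMB9: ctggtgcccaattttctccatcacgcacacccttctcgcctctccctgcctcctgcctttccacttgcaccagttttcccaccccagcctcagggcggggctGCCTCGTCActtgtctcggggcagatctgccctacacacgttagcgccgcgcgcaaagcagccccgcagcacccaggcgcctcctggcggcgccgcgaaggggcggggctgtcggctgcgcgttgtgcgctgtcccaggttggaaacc
PSMB3: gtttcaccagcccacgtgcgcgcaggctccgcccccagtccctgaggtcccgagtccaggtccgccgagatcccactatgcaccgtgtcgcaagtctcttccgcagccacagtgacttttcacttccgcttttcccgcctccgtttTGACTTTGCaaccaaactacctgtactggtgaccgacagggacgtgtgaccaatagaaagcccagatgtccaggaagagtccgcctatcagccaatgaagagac
PSMD12: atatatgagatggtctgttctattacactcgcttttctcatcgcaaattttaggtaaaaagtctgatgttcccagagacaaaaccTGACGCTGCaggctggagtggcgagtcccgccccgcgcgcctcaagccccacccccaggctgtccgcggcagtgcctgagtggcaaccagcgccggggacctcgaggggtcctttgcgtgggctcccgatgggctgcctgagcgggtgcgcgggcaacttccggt
PSME4: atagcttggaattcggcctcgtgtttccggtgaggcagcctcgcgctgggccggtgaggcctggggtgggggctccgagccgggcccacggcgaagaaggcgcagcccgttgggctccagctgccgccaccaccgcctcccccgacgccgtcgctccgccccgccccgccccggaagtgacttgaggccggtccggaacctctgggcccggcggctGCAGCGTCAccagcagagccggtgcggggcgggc

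Library totals ranged from 11077368 to 21901406 counts, of which the members took between 0.715% and 0.945%. In treated A2780cis cells at 12 h this share was 0.715% in replicate 2 and 0.857% in replicate 3, and several results below rested on these libraries. Most defining markers of ovarian epithelial carcinoma were absent or low. KRT7 had no count in any library, PAX8, WT1 and MUC16 had at most 2, and KRT19 at most 6, whereas KRT8 reached 5.97, KRT18 26.5 and EPCAM 1.35 CPM. The leukocyte markers PTPRC, CD3E and CD14 had at most 3 counts. Levels are given in CPM, the TMM-normalized counts relative to the library total. They are shares of a library, so that less RNA of a gene per cell and more RNA of other genes cannot be told apart. Of the 50 members, 48 passed the filter on low counts. The others were PSMA8 and PSMB11, the core subunits of testis and thymus, with at most 1 and 2 counts in any library.

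Per kilobase of the canonical transcript and averaged over the 8 groups, the levels spread over more than 2 orders of magnitude. PSMB4 had the highest level (520 CPM per kb), followed by PSMB5 (342) and PSME2 (341). In the alpha ring, levels ran from 215 CPM per kb in PSMA3 to 51.0 in PSMA5, and among the noncatalytic beta subunits from 520 in PSMB4 to 54.3 in PSMB2. Among the catalytic subunits, PSMB5 was followed by PSMB7 (213) and PSMB6 (188). The ATPases ranged from 140 (PSMC5) to 46.1 (PSMC1), and the non-ATPases from 214 (PSMD14, the deubiquitinase of the particle) to 29.4 (PSMD12). The order depended on the group for PSMD14, which had 323 CPM per kb in untreated A2780cis and 150 in untreated A2780 cells at 12 h, where PSMD4 had 165 and 200. The assembly factors were low, from 51.1 (PSMG2) to 12.6 (PSMD9), as were PSME4 (22.2) and PSMF1 (8.06). Below PSME2 and PSME1 (94.0), the immune members PSMB9 (24.2), PSMB10 (16.9) and PSMB8 (2.64 CPM per kb) were at the lower end, where PSMB9 had 55.3 CPM per kb in untreated A2780 and 0.565 in untreated A2780cis cells at 12 h. The value of PSMC1 is uncertain, because 13 pseudogenes in the table held counts equal to 31.0% of its own and 76.1% of its exon bases lie under NRDE2 on the opposite strand, with the strand setting of the counting not given in the sources used here.

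The first question was how proteasome genes of platinum-sensitive cells responded to 12 h of 5-FdU-ECyd. In A2780 cells, 23 of 48 tested members were down-regulated and 1, PSMC3IP, was up-regulated, so that no subunit, regulator or assembly factor rose. Down-regulated genes were 47.9% of the members and 26.1% of all 20240 genes tested, while up-regulated genes were 2.08% of the members and 28.6% of all genes. In either direction 54.8% of all genes were called. The median log2 FC of the members was -0.26, compared to 0.01 over all genes tested. Scaling by library size alone, which moved the median of all genes to 0.238, left 13 members lower and 3 higher, with a median of -0.04.

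In platinum-resistant A2780cis cells the same exposure gave 14 members up-regulated and 14 down-regulated, with a median log2 FC of 0.09 (0.04 over all genes). Each direction held 29.2% of the members, compared to 31.0% of all genes up-regulated and 28.9% down-regulated. In either direction 58.3% of the members and 59.9% of all genes were called, so that these shares were near the background. Of the members down-regulated in A2780, 14 were also down-regulated in A2780cis, 9 passed the threshold in A2780 alone, and 13 were up-regulated in A2780cis without passing in A2780. None passed in opposite directions. How all genes divide over these classes was not computed, so that these counts have no background to be compared to. The number of up-regulated members in A2780cis rested on single libraries. It was 6 without treated replicate 3, 9 without untreated replicate 2 and 20 without treated replicate 2, whereas the number down-regulated stayed between 11 and 15. It was also 21, with 11 lower, under scaling by library size alone, where the median of all genes was 0.145, and 18, with 11 lower, without lncRNA and rRNA genes.

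**Figure D1:**
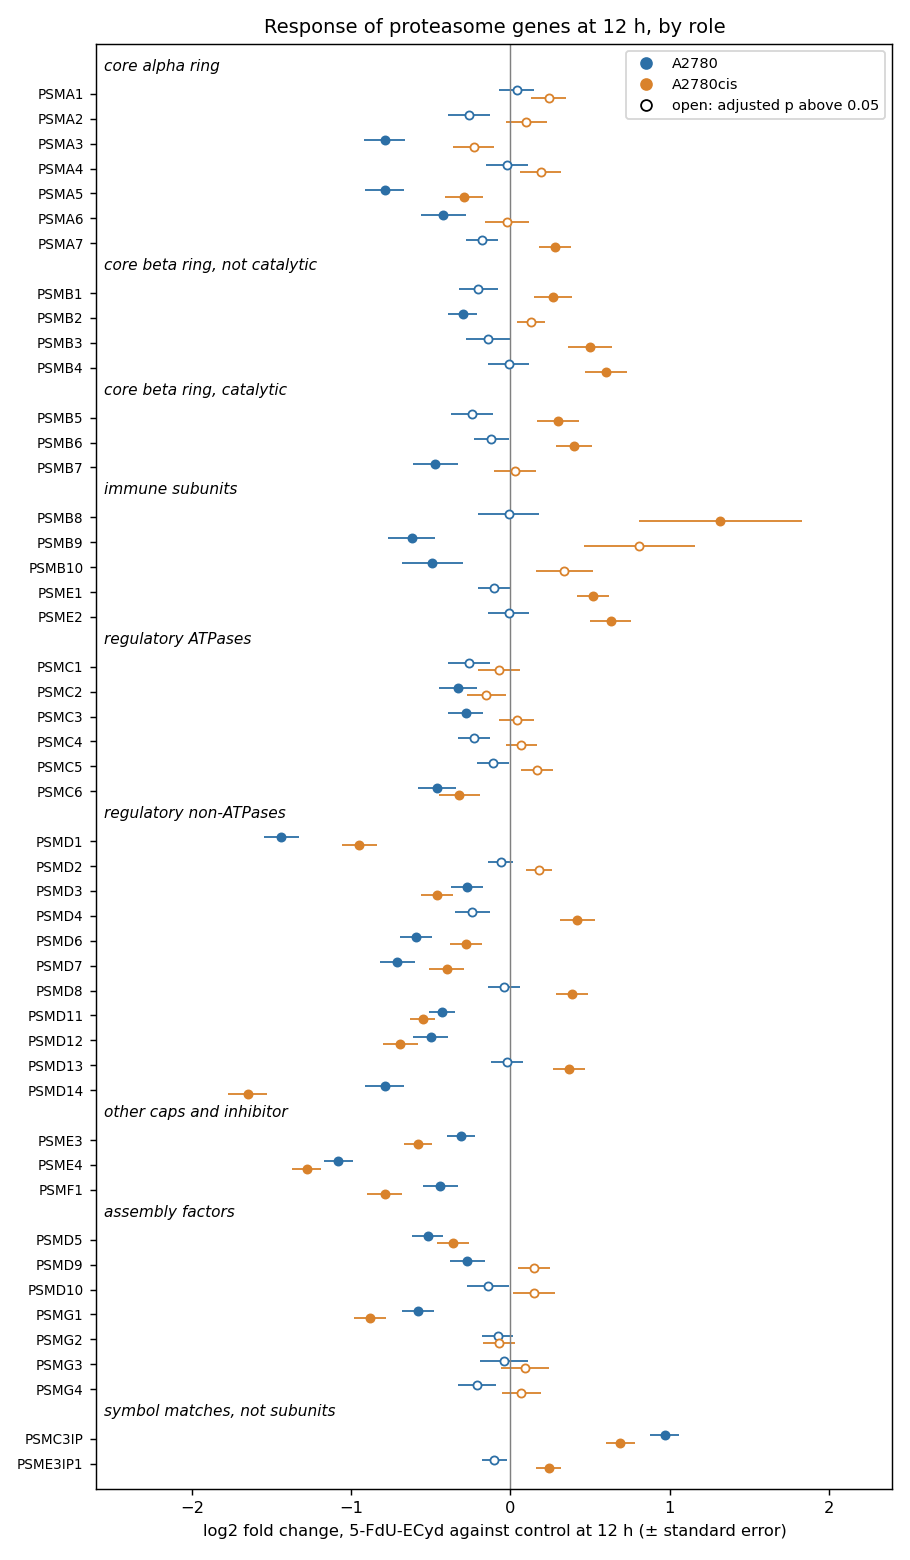
Log2 fold change at 12 h of 5-FdU-ECyd against control for the 48 tested members, grouped by role, in A2780 (blue) and A2780cis (orange), with bars of 1 standard error from the fit over all libraries (3 libraries per group). Filled points passed an adjusted p-value of 0.05. PSMD1 and PSME4 lie far to the left in both lines and PSMD14 in A2780cis, while the log2 FC of the beta subunits is higher in A2780cis than in A2780.

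At 12 h the regulatory particle held the single largest decrease in each line. Of its 17 ATPase and non-ATPase genes, 10 fell in A2780 and none rose, and 8 fell and 3 rose in A2780cis (PSMD4, PSMD8 and PSMD13). Of all genes tested, 26.1% fell and 28.6% rose in A2780, and 28.9% fell and 31.0% rose in A2780cis. Under scaling by library size alone the counts of the particle were 7 lower and 1 higher in A2780 and 6 lower and 5 higher in A2780cis. The 3 genes that rose are among the 14 members up-regulated in A2780cis, of which 6 passed without treated replicate 3. PSMD1, the large scaffold subunit of the particle (chr2:231056845-231173116), had 527, 522 and 472 CPM in untreated A2780 cells at 12 h and 201, 182 and 176 CPM after treatment. In A2780cis it had 404, 355 and 340 CPM untreated and 211, 162 and 197 CPM treated. The groups did not overlap in either line. The log2 FC was -1.44 ± 0.11 in A2780 (SE, adjusted p = 3.99e-11, edgeR) and -0.95 ± 0.11 in A2780cis (adjusted p = 4.02e-08, edgeR).

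PSMD14, which removes ubiquitin chains from substrates at the entry of the core (chr2:161308425-161411717), was the member with the largest decrease in A2780cis. Untreated A2780cis cells had 580, 483 and 454 CPM at 12 h and treated cells 182, 135 and 167 CPM, a log2 FC of -1.65 ± 0.12 (adjusted p = 1.45e-11, edgeR). Untreated A2780 cells had 256, 241 and 211 CPM and treated cells 147, 132 and 130 CPM, a log2 FC of -0.79 ± 0.12 (adjusted p = 3.6e-06, edgeR). The untreated A2780cis libraries were thus all above those of A2780, while the treated groups of both lines lay close together. The difference of the responses between the lines was -0.86 ± 0.17 (adjusted p = 0.00064, edgeR).

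Other non-ATPases that fell in both lines were PSMD7, the partner of PSMD14 (log2 FC -0.71 in A2780 and -0.40 in A2780cis), PSMD12 (-0.50 and -0.69), PSMD6 (-0.59 and -0.28), PSMD11 (-0.43 and -0.55) and PSMD3 (-0.27 and -0.46). The calls of PSMD6 in A2780cis were lost without untreated replicate 1 or treated replicate 2, and those of PSMD3 in A2780 without untreated or treated replicate 3. A lncRNA on the opposite strand covers 31.2% of the exon bases of PSMD7, whose counts are uncertain. Among the ATPases only PSMC6 passed in both lines (-0.46 and -0.32), in A2780cis not without untreated replicate 1 or treated replicate 2. PSMC2 (-0.33) and PSMC3 (-0.28) fell in A2780, with values of -0.15 and 0.04 in A2780cis, and each lost the call in 3 or more of the 6 fits that left out a library. PSMD4, a ubiquitin receptor, rose in A2780cis (0.42 ± 0.11, adjusted p = 0.00154, edgeR) from 237, 206 and 209 CPM to 297, 235 and 341 CPM, where treated replicate 2 lay just below the highest untreated library.

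Both other caps and the inhibitor fell in both lines, that is 3 of 3 genes each time. Of all genes, 26.1% fell in A2780 and 28.9% in A2780cis. Under scaling by library size alone, however, only PSME4 passed in A2780. PSME4, an activator linked to the degradation of histones (chr2:53864069-53970993), had 199, 181 and 180 CPM in untreated and 92.0, 86.8 and 87.0 CPM in treated A2780 cells at 12 h. In A2780cis these were 190, 187 and 178 CPM and 80.7, 75.4 and 71.8 CPM. The log2 FC was -1.08 ± 0.09 (adjusted p = 9.79e-11, edgeR) in A2780 and -1.28 ± 0.09 (adjusted p = 3.39e-12, edgeR) in A2780cis, and no library of a treated group came near those of its controls. The inhibitor PSMF1 (-0.44 and -0.79) and the nuclear cap PSME3 (-0.31 and -0.58) changed less.

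Of the 14 alpha and beta genes of the core particle, 5 fell and none rose in A2780, whereas 6 rose and 1 fell in A2780cis. Over all genes 26.1% fell and 28.6% rose in A2780, and 31.0% rose and 28.9% fell in A2780cis. Under scaling by library size alone, 2 fell and 1 rose in A2780 and 9 rose in A2780cis. The alpha subunits PSMA3 and PSMA5 were the core genes with the largest decreases in A2780, each with a log2 FC of -0.79. PSMA5 (chr1:109399042-109426448) had 267, 264 and 263 CPM untreated and 163, 145 and 151 CPM treated, and in A2780cis 134, 111 and 111 CPM untreated and 104, 76.0 and 111 CPM treated. Its log2 FC of -0.29 ± 0.12 in A2780cis (adjusted p = 0.0378, edgeR) came with overlapping groups and was lost without untreated replicate 1 or treated replicate 2. PSMA3 had 251, 245 and 224 CPM against 161, 131 and 124 CPM in A2780, and a log2 FC of -0.23 ± 0.13 in A2780cis (adjusted p = 0.111, edgeR). PSMA6 (-0.42), PSMB2 (-0.30) and the catalytic PSMB7 (-0.47) fell in A2780 as well, but not under scaling by library size alone.

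PSMB4, a noncatalytic beta subunit (chr1:151399560-151401937), had the largest increase of the core in A2780cis. Untreated cells had 419, 365 and 371 CPM and treated cells 602, 455 and 696 CPM, a log2 FC of 0.60 ± 0.13 (adjusted p = 0.000288, edgeR). The groups did not overlap, and the call held in each fit that left out a library. In A2780 the level was 450, 420 and 452 CPM untreated and 448, 421 and 441 CPM treated. PSMB3 rose from 177, 149 and 151 CPM to 233, 173 and 272 CPM in A2780cis (0.50 ± 0.14, adjusted p = 0.00286, edgeR), with treated replicate 2 inside the untreated range, and did not pass without treated replicate 3 (0.32). The catalytic subunits PSMB5 (0.30) and PSMB6 (0.40), together with PSMB1 (0.27) and PSMA7 (0.28), also rose in A2780cis, but none of these passed without treated replicate 3.

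**Figure D2:**
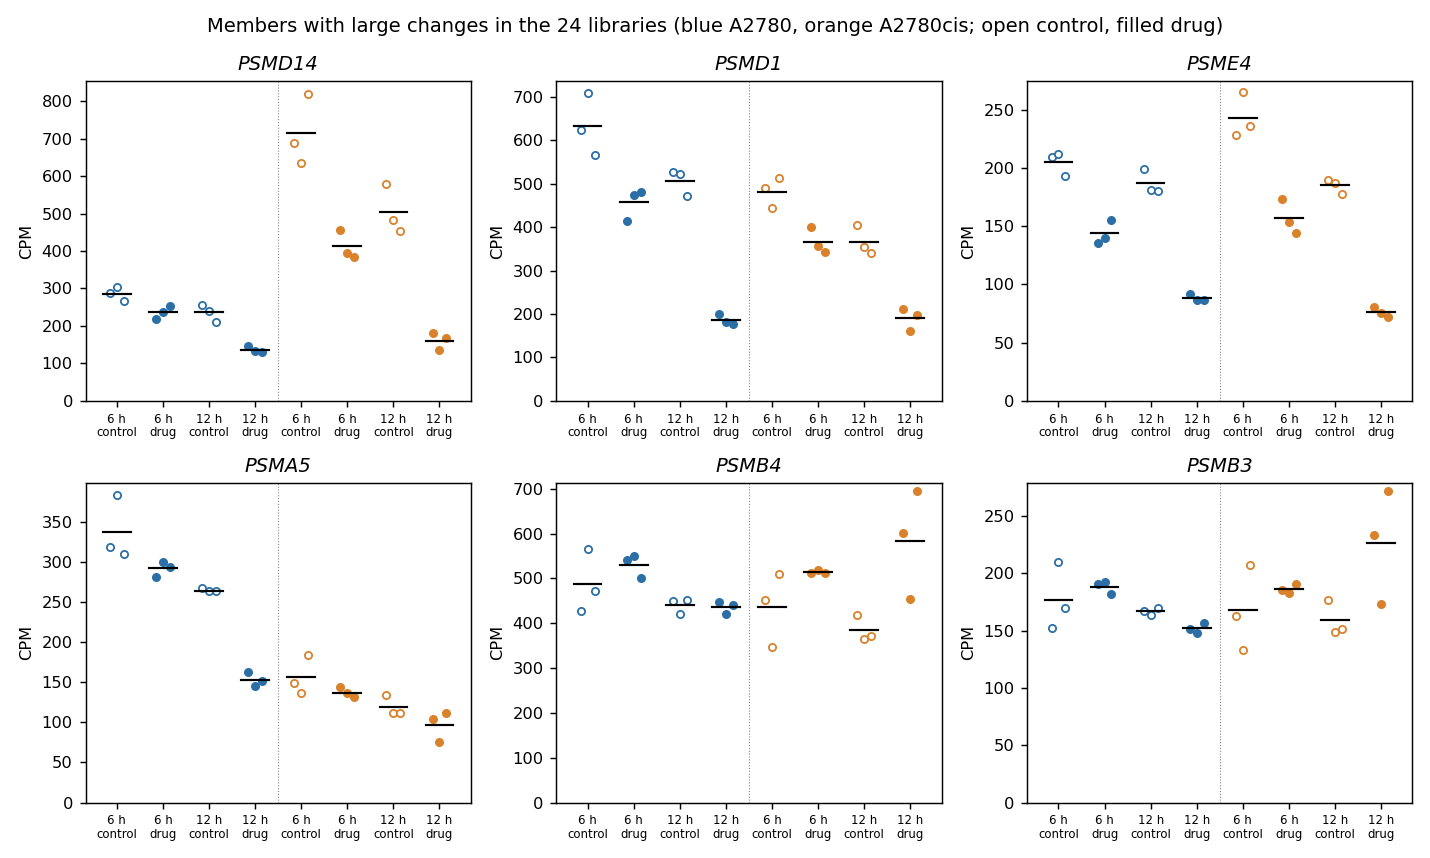
CPM in each of the 24 libraries for 6 members with large changes, by line, time and treatment, on linear axes from 0, where open points are control libraries, filled points treated libraries and lines group means. PSMD14 averages 236 CPM in A2780 and 505 CPM in A2780cis in untreated cells at 12 h and ends at 136 CPM in A2780 and 161 CPM in A2780cis after 12 h, and PSMB4 and PSMB3 spread widely in treated A2780cis cells.

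Of the 7 assembly factors, 3 fell in A2780 (PSMG1, PSMD5 and PSMD9) and 2 in A2780cis (PSMG1 and PSMD5), and none rose. Over all genes 26.1% fell and 28.6% rose in A2780, and 28.9% fell and 31.0% rose in A2780cis. The share of assembly factors that fell in A2780cis was thus near the background. PSMG1, a chaperone of the alpha ring (chr21:39174769-39183488), went from 81.6, 82.6 and 78.4 CPM to 61.9, 52.6 and 48.3 CPM in A2780 (-0.58 ± 0.10, adjusted p = 2.97e-05, edgeR), and from 97.7, 91.5 and 88.1 CPM to 55.1, 43.9 and 52.0 CPM in A2780cis (-0.88 ± 0.10, adjusted p = 4.89e-08, edgeR). Its partner PSMG2 had values of -0.08 and -0.07. The recombination factor PSMC3IP (chr17:42572310-42577831) was the member with the clearest increase in both lines. It had 41.7, 40.3 and 40.0 CPM untreated and 83.4, 78.7 and 77.0 CPM treated in A2780 (0.97 ± 0.09, adjusted p = 1.21e-09, edgeR), and 53.8, 48.7 and 50.7 CPM against 84.0, 72.3 and 91.1 CPM in A2780cis (0.69 ± 0.09, adjusted p = 2.37e-07, edgeR). MLX on the opposite strand covers 30.1% of its exon bases.

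The test of the difference between the lines at 12 h gave 18 members with a higher log2 FC in A2780cis and 1 with a lower, PSMD14. Over all genes, 23.7% were called, 9.70% higher and 14.0% lower. The median difference over members was 0.31, compared to -0.04 over all genes. The 18 comprised 9 of 14 core genes, among them all 4 noncatalytic beta subunits (0.44 to 0.64), 4 of 5 immune members, 3 of 17 genes of the regulatory particle, which were PSMD1 (0.50), PSMD4 (0.66) and PSMD8 (0.43), as well as PSMD9 and PSME3IP1. No ATPase gene passed. The most significant was PSMD14, followed by PSME1 (0.62 ± 0.14, adjusted p = 0.00281, edgeR) and PSMD4 (0.66 ± 0.15, adjusted p = 0.00299, edgeR). The number of members called was 7 without untreated A2780cis replicate 2 or without treated A2780cis replicate 3, 11 without untreated A2780cis replicate 3 and 12 without untreated A2780 replicate 1. PSMD14, PSMD4, PSMB9 and PSME1 passed in every fit that left out a library. PSMB9 had few counts in A2780cis, with 33 untreated and 50 treated over the 3 libraries of each group. Scaling by library size alone gave 14 higher and 7 lower.

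The immune members were compared next, and PSMB9 and PSMB8 held the largest differences of any member between the untreated lines. PSMB9, a catalytic subunit of the immunoproteasome (chr6:32844136-32859851), had 58.9, 55.4 and 54.6 CPM in untreated A2780 cells at 12 h and 0.626, 0.449 and 0.648 CPM in untreated A2780cis cells. The sums were 2910 and 33 counts, a ratio of 97.1 in CPM with a 95% interval of 69.0 to 141 that covers counting error only. At 6 h the ratio was 141 (80.4 to 273). PSMB8, its neighbour (chr6:32840717-32844679), had 5.81, 6.20 and 6.17 CPM in A2780 and 0.0482, 0.168 and 0.270 CPM in A2780cis, where the 3 libraries together held 9 counts. The ratio was 38.5 (20 to 85.0) at 12 h and 16.5 (8.74 to 34.9) at 6 h. Every A2780 library exceeded every A2780cis library for both genes. The counts of PSMB8 are uncertain, since 17.3% of its exon bases overlap PSMB9 and the lncRNA PSMB8-AS1 on the opposite strand.

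PSMB10, the third catalytic immune subunit (chr16:67934506-67936864), did not share this pattern. Untreated A2780 cells had 18.6 ± 1.24 CPM and untreated A2780cis cells 20.1 ± 1.56 CPM at 12 h (SD, n = 3), with overlapping groups and a log2 difference of 0.12 ± 0.18 (SE, adjusted p = 0.615, edgeR). Its counts are uncertain, since 39.4% of its exon bases are shared with another protein-coding gene on the same strand. The caps were lower in untreated A2780cis cells by smaller amounts. PSME1 (chr14:24136163-24138967) had 110, 107 and 106 CPM against 67.1, 61.2 and 59.6 CPM (log2 difference -0.78 ± 0.10, adjusted p = 3.33e-07, edgeR), and PSME2 (chr14:24143362-24147570) had 285, 280 and 274 CPM against 205, 170 and 170 CPM (-0.62 ± 0.13, adjusted p = 0.000238, edgeR).

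After 12 h of 5-FdU-ECyd, PSMB9 and PSMB10 fell in A2780, and PSME1 and PSME2 rose in A2780cis. In A2780, PSMB9 fell to 32.3, 36.6 and 40.5 CPM (-0.62 ± 0.15, adjusted p = 0.000736, edgeR) and PSMB10 to 10.2, 14.0 and 15.1 CPM (-0.49 ± 0.19, adjusted p = 0.0267, edgeR), the latter call being lost without untreated or treated replicate 1 and under scaling by library size alone. PSMB8, PSME1 and PSME2 had values of -0.01, -0.10 and -0.01. In A2780cis, PSME1 rose to 92.6, 72.9 and 104 CPM (0.52 ± 0.10, adjusted p = 0.000101, edgeR) and PSME2 to 290, 218 and 338 CPM (0.63 ± 0.13, adjusted p = 0.000161, edgeR), where treated A2780 cells had 110, 96.9 and 94.7 CPM and 300, 267 and 266 CPM. Both calls held in each fit that left out a library. PSMB8 passed the threshold with a log2 FC of 1.32 ± 0.51 (adjusted p = 0.0283, edgeR), but on 20 against 9 counts, a ratio of 2.58 (1.12 to 6.43). PSMB8 passed the filter on low counts only through its level in A2780, and it was not tested when the A2780cis groups were fitted alone, nor was PSMB9 at 6 h. The call, which is counted among the 14 up-regulated members, was lost with DESeq2 (adjusted p = 0.0582), with no filter on low counts and without untreated replicate 1, untreated replicate 2 or treated replicate 3. PSMB9 had 1.27, 0.689 and 1.12 CPM after treatment, a log2 FC of 0.81 ± 0.35 (adjusted p = 0.0502, edgeR), and PSMB10 0.34 ± 0.18 (adjusted p = 0.108, edgeR).

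**Figure D3:**
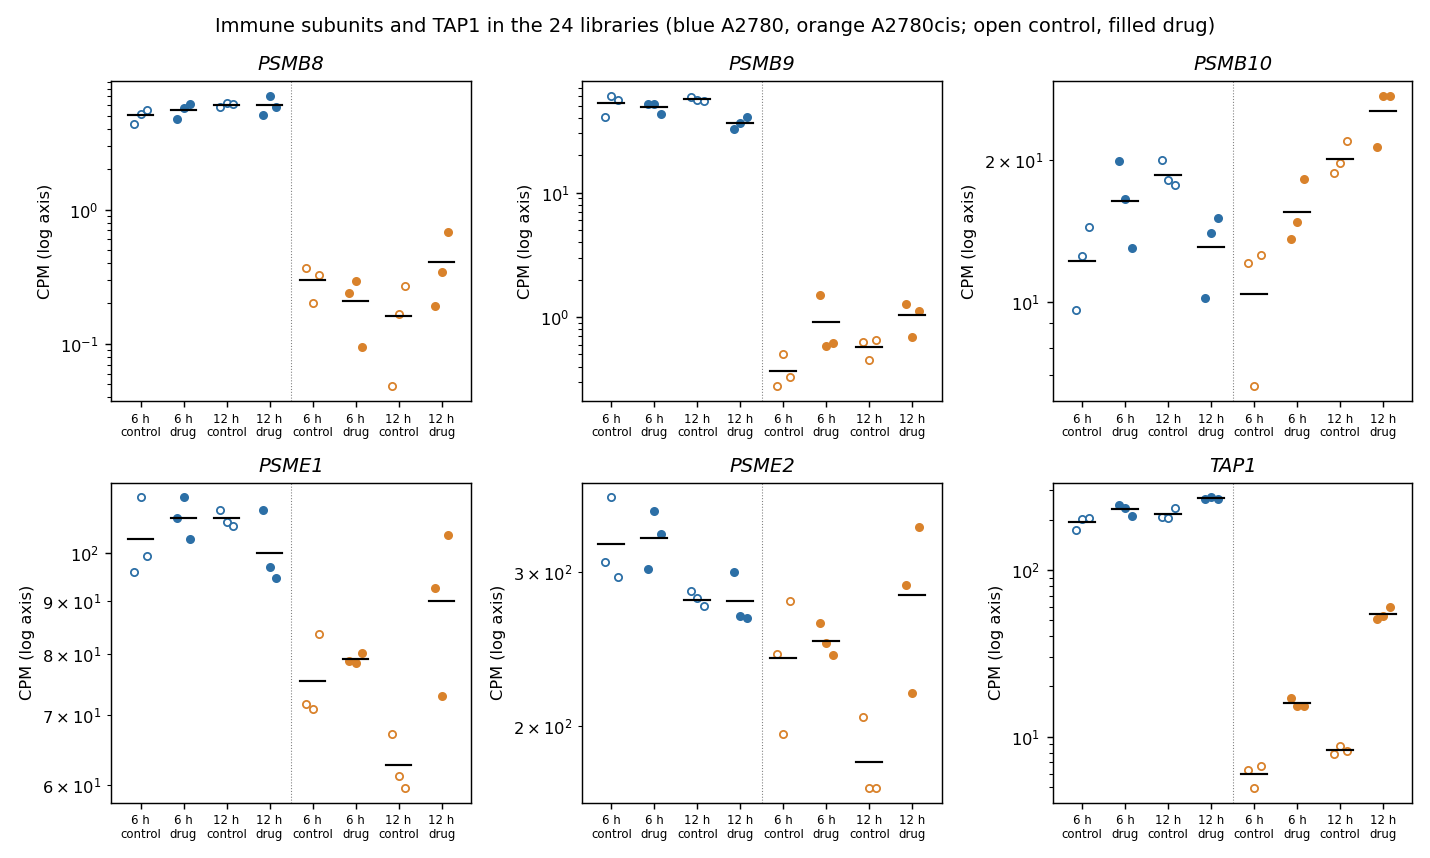
CPM on log axes in each of the 24 libraries for the 5 immune members and the neighbouring peptide transporter gene TAP1, by line, time and treatment, where open points are control libraries, filled points treated libraries and lines group means. PSMB8, PSMB9 and TAP1 are far lower in A2780cis than in A2780, and TAP1 of A2780cis rises to 54.5 CPM after 12 h of treatment while PSMB9 reaches 1.03 CPM.

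The difference of the 12 h responses between the lines passed for PSMB9 (1.43 ± 0.38, adjusted p = 0.00811, edgeR), PSMB10 (0.83 ± 0.26, adjusted p = 0.0207, edgeR), PSME1 (0.62 ± 0.14) and PSME2 (0.64 ± 0.18, adjusted p = 0.0124, edgeR), and not for PSMB8 (1.33 ± 0.54, adjusted p = 0.077, edgeR). The call of PSMB10 was lost without untreated or treated A2780 replicate 1, without treated A2780cis replicate 3 and under scaling by library size alone, and that of PSME2 without treated A2780cis replicate 3. The call of PSMB9 rested on 33 untreated and 50 treated counts summed over the A2780cis libraries, where its own response had not passed.

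Genes of antigen presentation and its interferon control were taken as the list closest to the immune members. Of 10 genes, 9 were lower in untreated A2780cis than in untreated A2780 cells at 12 h and none was higher, compared to 27.5% and 25.4% of all genes. For TAP1, whose promoter faces that of PSMB9, the levels were 209, 206 and 236 CPM against 7.85, 8.76 and 8.20 CPM. NLRC5, the transactivator of MHC class I genes, had 84.5 ± 7.16 against 5.55 ± 0.611 CPM (SD, n = 3). With treatment, TAP1 rose in A2780cis to 50.6, 53.0 and 59.9 CPM at 12 h, a log2 FC of 2.72, and in A2780 to 266, 273 and 267 CPM, a log2 FC of 0.31. IRF1 rose in both lines (0.52 in A2780 and 1.18 in A2780cis), while NLRC5 fell in A2780 (-0.54) and had a value of 0.19 in A2780cis. TAPBP, which loads peptides, rose in both (0.50 and 0.61), as did HLA-B (0.22 and 0.98). HLA-C (0.76) and B2M (0.85) rose in A2780cis and TAP2 (-0.45) fell in A2780. Of the list, 4 genes rose and 3 fell in A2780 at 12 h, compared to 28.6% and 26.1% of all genes. In A2780cis 6 rose and 1 fell, compared to 31.0% and 28.9%. At 6 h, 5 had risen and 1 had fallen in A2780 (16.0% and 13.4% of all genes). In A2780cis 7 had risen and 0 had fallen at 6 h (14.4% and 16.3%). Untreated A2780cis cells changed as well, with 6 of the list higher and 2 lower at 12 h than at 6 h (18.0% and 21.9%). At 12 h the log2 FC was higher in A2780cis for all 10, by 2.41 for TAP1. The difference passed the threshold for 8 of them, compared to 9.70% of all genes. HLA genes are polymorphic and share reads, and their counts are uncertain.

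Untreated cells of the lines differed in other members too. At 12 h, 17 members were lower and 5 higher in A2780cis than in A2780, compared to 27.5% and 25.4% of all genes (52.9% in either direction). At 6 h 14 were lower and 7 higher, compared to 22.9% and 25.0% (47.9%). In either direction, 45.8% of the members were called at 12 h and 43.8% at 6 h, no more than of all genes. The smallest p-values at 12 h belonged to PSMB9, PSMB8 and PSMA5 (log2 difference -1.16 ± 0.12, adjusted p = 6.13e-09, edgeR). At 6 h they belonged to PSMB9, PSMB8 and PSMD14, and PSMA5 had a difference of -1.11. PSMD14 was higher in A2780cis by 1.10 ± 0.12 at 12 h (adjusted p = 1.18e-08, edgeR) and by 1.32 ± 0.12 at 6 h, where the libraries had 688, 636 and 819 CPM against 288, 303 and 267 CPM in A2780. The log2 differences of the ATPase gene PSMC3 were -0.90 and -0.89, and those of the inhibitor PSMF1 were 0.70 and 0.80. POMP, which matures the core particle, had 55.6 ± 5.64 CPM in A2780cis and 141 ± 14.5 CPM in A2780 at 12 h (SD, n = 3). Scaling by library size alone gave 4 higher and 19 lower at 6 h.

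After 6 h fewer members had responded. In A2780, 6 were up-regulated and 4 down-regulated (16.0% and 13.4% of all genes, 29.4% together), and in A2780cis 2 and 7 (14.4% and 16.3%, 30.7% together). The count in A2780 was 6 without untreated or treated replicate 1. PSME4, PSMD7 and PSMD1 fell in both lines, by -0.51, -0.50 and -0.47 on the log2 scale in A2780 and by -0.63, -0.72 and -0.40 in A2780cis. PSMC3IP rose in both (0.53 and 0.33), in A2780cis not without untreated replicate 2. PSMD14 fell in A2780cis from 688, 636 and 819 CPM to 456, 395 and 384 CPM (-0.79 ± 0.12, adjusted p = 1.3e-05, edgeR), while the value in A2780 was -0.27 ± 0.12 (adjusted p = 0.0825, edgeR). The largest increases in A2780 after PSMC3IP were those of PSMG3 (0.47) and PSMD3 (0.36), which both lost the call without untreated or treated replicate 1, and PSMG3 also without treated replicate 2. PSMB10 rose in A2780cis from 12.1, 6.62 and 12.6 CPM to 13.6, 14.8 and 18.2 CPM (0.57 ± 0.20, adjusted p = 0.0308, edgeR), a call lost without untreated replicate 2, treated replicate 2 or treated replicate 3.

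No core gene fell at 6 h in either line, and 1, PSMA7 (0.28), rose in A2780, a call lost with the size factors of DESeq2. The immune members PSMB8, PSMB9, PSMB10, PSME1 and PSME2 had values of 0.15, -0.09, 0.44, 0.08 and 0.02 in A2780, none of which passed. In A2780cis, PSMB8, PSMB9, PSME1 and PSME2 had values of -0.64, 1.21, 0.07 and 0.07, which did not pass either. PSMB8 had 10 untreated and 9 treated counts there, and PSMB9 12 and 40, summed over the 3 libraries of each group. Neither was tested when the A2780cis groups at 6 h were fitted alone. The split at 6 h depended on the scaling. With library size alone, 12 members were higher and 4 lower in A2780, and 12 higher and 5 lower in A2780cis. With the size factors of DESeq2 there were 5 higher and 6 lower in A2780, and without lncRNA and rRNA genes 6 and 6 in A2780 and 7 and 7 in A2780cis. The test of the difference between the lines at 6 h called no member with edgeR, compared to 3.07% of all genes, with 5 members at an unadjusted p under 0.05, and DESeq2 called 1, PSMD14. The smallest p-values were those of PSMD14 (-0.52), PSME3 (-0.35) and PSMB9 (1.30). The value of PSMB9 rested on the few A2780cis counts given above.

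The next comparison was of the responses at both times. In A2780, 18 members had a lower and 1 a higher log2 FC at 12 h than at 6 h, compared to 13.0% and 10.7% of all genes (23.7% in either direction). In A2780cis these were 8 and 3, compared to 13.6% and 10.3%. PSMD1, PSMD11 and PSME4 had the smallest p-values in A2780 (differences of -0.97, -0.54 and -0.56), and PSME4, PSMD14 and PSMD11 in A2780cis (-0.65, -0.85 and -0.52). PSMD11, a subunit of the lid, had 226, 269 and 236 CPM untreated and 254, 269 and 262 CPM treated at 6 h in A2780, and 237, 243 and 241 CPM against 190, 170 and 175 CPM at 12 h. PSME1 (0.45), PSME2 (0.57) and PSMC3IP (0.36) had a higher log2 FC at 12 h in A2780cis, but none of these passed without untreated 6 h replicate 3, untreated 12 h replicate 2 or treated 12 h replicate 3. Scaling by library size alone left 9 lower and 2 higher in A2780.

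Untreated cells, with which treated cells were compared at each time, changed between 6 h and 12 h as well. In A2780cis, 21 members were lower and 3 higher at 12 h, compared to 21.9% and 18.0% of all genes (39.9% in either direction). In A2780 9 were lower and 4 higher, compared to 10.3% and 16.6% (26.9%). Of the 7 alpha ring genes, 6 were lower at 12 h in A2780cis and 5 in A2780, with log2 differences of -0.34 to -0.47 among those called. The count in A2780cis was 9 without untreated 6 h replicate 3, 11 without untreated 12 h replicate 3 and 15 without untreated 12 h replicate 2, and with library size alone it was 9 lower and 7 higher. In A2780 it was 2 without untreated 6 h replicate 1 or 12 h replicate 3 and 5 without untreated 6 h replicate 2 or 12 h replicate 2, and 13 lower and 3 higher with the size factors of DESeq2. The smallest p-values belonged to PSMC3IP (-0.37), PSMD3 (0.41) and PSMC1 (-0.46) in A2780, where PSMD3 did not pass without untreated 6 h replicate 1 nor PSMC1 without untreated 6 h replicate 2 or untreated 12 h replicate 3, and to PSMB10 (0.94), PSME4 (-0.39) and PSMD14 (-0.50) in A2780cis. PSMB10 was also higher at 12 h in A2780 (0.62), a call lost without untreated 6 h replicate 1 or untreated 12 h replicate 1 or 3.

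Genes that act with the proteasome but carry other symbols were counted as lists. Of 13 partners and further subunits, 5 fell and 2 rose at 12 h in A2780, and 7 fell and 2 rose in A2780cis. Of all genes, 26.1% fell and 28.6% rose in A2780, and 28.9% fell and 31.0% rose in A2780cis, which also holds for the next lists. The scaffold ECPAS, which binds core and regulatory particle, had 232 ± 1.87 CPM untreated and 99.2 ± 5.78 CPM treated in A2780 (SD, n = 3), a log2 FC of -1.22, and -1.48 in A2780cis. The deubiquitinases UCHL5 (-0.67 and -0.66) and USP14 (-0.54 and -0.83), the ligase UBE3C (-0.71 and -0.96) and TXNL1 (-0.49 and -0.72) fell in both lines, and SEM1, the smallest subunit of the lid, rose in both (0.38 and 0.79), as did PITHD1 (0.45 and 0.26). ADRM1 (-0.59) and ZFAND2A (-0.56) fell in A2780cis.

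Of 5 genes that control proteasome transcription, 2 fell in A2780 and 3 in A2780cis, and none rose. The protease DDI2, which activates NFE2L1, fell in both lines (-0.58 and -0.77). NFE2L1 fell in A2780 (-0.32), from 166 ± 16.1 to 133 ± 7.49 CPM, and had 171 ± 13.6 and 183 ± 11.8 CPM in A2780cis (SD, n = 3, log2 FC 0.09), and the difference between the lines passed (0.41). NGLY1 (-0.61) and NFE2L2 (-0.51) fell in A2780cis. Of 14 genes of ubiquitin and its shuttles, 7 fell and 1 rose in A2780, and 9 fell and 3 rose in A2780cis. The shuttle factors RAD23B (-0.70 and -1.11) and UBQLN1 (-0.90 and -1.11), and the segregase VCP (-0.67 and -0.90) fell in both, as did UBQLN4 (-0.41 and -0.62) and the activating enzyme UBA6 (-0.37 and -0.54). UFD1, a cofactor of VCP, rose in both (0.31 and 0.26). UBB fell in A2780 (-0.32). NPLOC4 (-0.65) and UBQLN2 (-0.27) fell in A2780cis, and the ribosomal fusion gene RPS27A (0.67) rose there.

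The fold change of a member varied with the length of its gene. PSMD1, PSME4 and PSMD14, which span 116, 107 and 103 kb, were among the members with the largest decreases, and PSMB4, which spans 2.38 kb, one of the largest increases in A2780cis. Spearman's rho between log2 FC and span was -0.46 in A2780 and -0.60 in A2780cis at 12 h, and -0.55 and -0.48 at 6 h, across 48 members that come from the same libraries. Over 13881 protein-coding genes tested it was -0.23 and -0.38 at 12 h and -0.35 and -0.40 at 6 h. With the length of the canonical transcript in place of span, rho over the members at 12 h was -0.35 in A2780 and -0.61 in A2780cis. Over the protein-coding genes it was -0.11 and -0.31. At 6 h it was -0.16 and -0.44 over the members, and -0.21 and -0.26 over the protein-coding genes. Among genes that span over 30 kb, the median log2 FC at 12 h in A2780 was -0.42 for 13 members and -0.14 for 7324 genes, and in A2780cis -0.07 and -0.30. Between 10 and 30 kb it was -0.27 for 19 members and 0.11 for 3928 genes in A2780, and 0.07 and 0.14 in A2780cis. Under 10 kb it was -0.11 for 16 members and 0.06 for 2629 genes in A2780, and 0.31 and 0.28 in A2780cis. PSMA1, which spans 139 kb in the annotation, had values of 0.04 and 0.24 in the lines and overlaps another protein-coding gene on the same strand over 26.7% of its exon bases. The part of gene length in the responses was not tested.

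**Figure D4:**
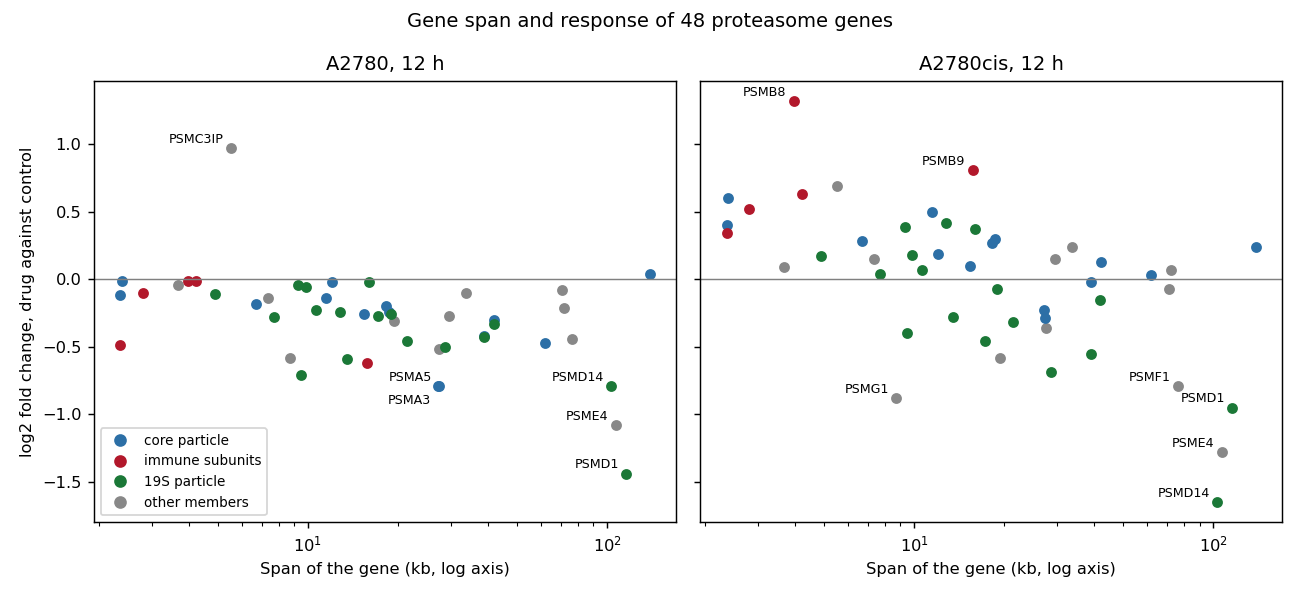
Log2 fold change at 12 h against the span of the gene in kb (log axis) for the 48 tested members, in A2780 (left) and A2780cis (right), with core particle genes in blue, immune members in red, regulatory particle genes in green and other members in grey. The genes at 103 to 116 kb (PSMD14, PSME4 and PSMD1) are among the lowest in both panels, and PSMA1 at 139 kb lies near 0 in A2780.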

How the data were processed

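RNA of 24 libraries was prepared with a stranded total RNA kit and sequenced on a NextSeq500. Per the paper's supplement and the submitters' processing notes, the authors trimmed reads with Trimmomatic, aligned them with STAR 2.5.2b to GRCh38.p7 and counted them on exons with featureCounts, where a read could count for several genes and multiply aligned reads entered as fractions. The deposited values are therefore expected counts, not normalized. The strand setting is not given in the sources used here, and the labels describe single and the paper paired-end reads.

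Identifiers were matched without version to GENCODE release 44, which lists 56948 of the 63299 rows and gave the coordinates (GRCh38). Counts were rounded, filtered with filterByExpr (minimum count 10, minimum total 15), scaled with TMM and fitted in edgeR 4.0.16 (R 4.3.3) by quasi-likelihood, with each of the groups as a coefficient and 16 degrees of freedom left. P-values were adjusted over all 20240 genes with the Benjamini-Hochberg method, two-sided, with a threshold of 0.05. The SE of a log2 FC is its size over the root of the F statistic. DESeq2 1.42.0 was an alternative, beside those of the closing section. Count ratios carry exact 95% intervals that cover counting error only. The fit was tested on simulated data. Figures were drawn with matplotlib 3.10.9.

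Members, gene lists and comparisons were chosen with earlier results of these data known. Named are all immune members, those that failed the filter, the 3 largest increases and decreases of each treatment comparison among genes past the threshold, the 3 smallest p-values of the other comparisons, the highest and lowest member of each role, and pathway genes past the threshold at 12 h. Some genes of the pathway and marker lists are counted but not reported by name here. PSMB4, PSMB3, PSMD4, PSMG1, PSMC3, PSMF1, PSMD7 and further members were also named after their values were seen.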

Additional observations from a re-analysis of the deposited data

Results flagged for a closer look

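The response to 5-FdU-ECyd at 12 h differed between the lines, by the interaction test of edgeR over all genes, in 19 members, compared to 23.7% of all genes. The log2 FC in A2780cis minus that in A2780 was -0.86 for PSMD14. It was positive for PSMB9 (1.43), PSMB10 (0.83), PSMD4 (0.66), PSME2 (0.64), PSMB3 (0.64), PSME1 (0.62), PSMB4 (0.61), PSMA3 (0.56), PSMB5 (0.54), PSMB6 (0.51), PSMD1 (0.50), PSMA5 (0.50), PSMB1 (0.48), PSMA7 (0.46), PSMB2 (0.44), PSMD8 (0.43), PSMD9 (0.42) and PSME3IP1 (0.34).

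The response differed between 12 h and 6 h, by the same test, in 19 members in A2780, compared to 23.7% of all genes. The log2 FC at 12 h minus that at 6 h was 0.44 for PSMC3IP and negative for PSMD1 (-0.97), PSMB10 (-0.93), PSMD3 (-0.63), PSMF1 (-0.61), PSMA3 (-0.59), PSMA5 (-0.58), PSME4 (-0.56), PSMC3 (-0.56), PSMC4 (-0.55), PSMD11 (-0.54), PSMD14 (-0.52), PSMD9 (-0.51), PSMA7 (-0.47), PSMG1 (-0.46), PSMD6 (-0.41), PSMD2 (-0.38), PSMB2 (-0.37) and PSME3 (-0.37).

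In A2780cis this difference passed in 11 members, 8 lower and 3 higher, where 13.6% of all genes were lower and 10.3% higher, so that the share of members was near the background. It was negative for PSMD14 (-0.85), PSME4 (-0.65), PSMD3 (-0.62), PSMF1 (-0.62), PSMD1 (-0.55), PSMG1 (-0.52), PSMD11 (-0.52) and PSMD12 (-0.50), and positive for PSME2 (0.57), PSME1 (0.45) and PSMC3IP (0.36). Whether these differences between times differ between the lines was not tested.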

How the results depend on the processing

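The counts of members called were computed again with the size factors of DESeq2, library size alone, no filter, unrounded counts, a replicate block, the compared groups alone, no lncRNA and rRNA genes, the DESeq2 test and each library left out in turn. Of these counts, 173 stayed within 1.5 times the count reported and 19 did not. With library size alone, 16 members were called in A2780 and 17 in A2780cis at 6 h, 1 in the difference between lines at 6 h, and 11 in the difference between times in A2780. Without lncRNA and rRNA genes, 14 were called in A2780cis at 6 h, and DESeq2 called 1 in the difference between lines at 6 h. With libraries left out, the counts ranged from 21 to 25 and 20 to 31 at 12 h in A2780 and A2780cis, 6 to 11 and 6 to 10 at 6 h, 7 to 27 and 0 to 0 for the difference between lines at 12 h and 6 h, 13 to 19 and 8 to 16 for that between times, 16 to 22 and 16 to 21 for untreated cells of the lines at 12 h and 6 h, and 2 to 13 and 9 to 29 for untreated cells at 12 h against 6 h. The cause of these shifts was not tested.

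Deviations of same-numbered untreated and treated libraries from their group means had r from -0.254 to 0.312, the highest in replicate 1 of A2780cis at 12 h. The labels do not say whether these libraries were paired. With 3 libraries per group this check cannot decide it. With the replicate block, 24 and 28 members were called at 12 h, 11 and 10 at 6 h, 20 and 0 in the difference between lines, 19 and 11 in that between times, 22 and 21 in untreated cells of the lines, and 14 and 26 between times in untreated cells, and no count moved by over 1.5 times.

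Of the log2 FCs named by rule, 997 kept their sign and call under an alternative, 25 no longer passed, 17 newly passed and 20 changed sign, all of the latter in members that had not passed. In A2780 at 12 h, PSMB8 was 0.22 with library size alone, 0.01 with the compared groups alone, 0.02 without lncRNA and rRNA genes and -0.15 to 0.08 with libraries left out, PSME1 was 0.12 with library size alone, and PSME2 was 0.21, 0.01 and 0.01 under the same settings as PSMB8 and -0.08 to 0.02 with libraries left out. In A2780 at 6 h, PSMB9 was -0.24 to 0.03 with libraries left out, and PSME2 was -0.01 with the size factors of DESeq2, without lncRNA and rRNA genes and with the DESeq2 test, and -0.04 to 0.12 with libraries left out. In A2780cis at 6 h, PSME2 was -0.06 to 0.19 with libraries left out. Depth limits PSMB8 and PSMB9 in A2780cis, where a library held at most 11 counts of PSMB8.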
